A study of Mus musculus with 10 samples.

Results

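The 9 genes described here, Nkx2-5, Isl1, Mef2c, Hand1, Hand2, Myocd, Smarcd3, Casz1 and Hopx, encode core transcription regulators of the developing heart. They were chosen by name, as the rows of the count tables whose Ensembl identifier carries 1 of these symbols in the GENCODE M21 annotation. All 9 were found, each under 1 identifier, among 38924 genes in the tables, of which 37607 have a symbol in that annotation.

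Cardiac mesoderm arises from cells that leave the primitive streak and turn on a small set of interlocking DNA-binding factors and their partners. Nkx2-5 is a homeodomain factor of cardiac progenitors and cardiomyocytes, and Isl1 is a LIM-homeodomain factor best known from the second heart field (SHF), whose progenitors join the heart tube late and build the right ventricle, the outflow tract and part of the atria. Hand1 and Hand2 are related basic helix-loop-helix factors of lateral mesoderm and the ventricles. Mef2c is a MADS-box factor that drives muscle genes, Myocd (myocardin) is a coactivator of the related factor SRF, and Hopx is an unusual homeodomain protein that does not bind DNA and opposes SRF. Smarcd3, also called Baf60c, is a subunit of the BAF chromatin remodelling complex that links it to cardiac factors, and Casz1 is a zinc finger factor needed for heart morphogenesis.

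RNA was sequenced from populations sorted at day 5 of the differentiation of mouse embryonic stem cells (mESCs), to compare cardiac mesoderm (CM) with and without expression of Foxa2, a forkhead factor of endoderm and axial midline. All 10 samples came from 1 genetically modified line, Foxa2-hCD4, which makes a truncated human CD4 protein from the Foxa2 locus, so that the gate reads that reporter on the cell surface and not Foxa2 mRNA. Foxa2+ CM (n = 3) were Kdr+Pdgfra+ hCD4+ cells and Foxa2- CM (n = 3) were Kdr+Pdgfra+ hCD4- cells, both from cardiac cultures that received Activin A at 8 ng/ml, BMP4 at 1 ng/ml and VEGF at 5 ng/ml. The group Flk1+ high (n = 2), named for another name of Kdr and called haematopoietic mesoderm in the study, was sorted from the same kind of culture, while Endoderm (n = 2) was sorted as hCD4+ cells from cultures induced with Activin A at 75 ng/ml. The labels do not state that replicates were separate cultures, so the p-values given here measure the spread between these samples, which may be technical. In sorted bulk populations, fewer cells that express a gene and less RNA per cell cannot be told apart.

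Each sample had between 10926284 and 17470126 counts on genes. Levels are given in CPM, that is counts scaled to the library size, after TMM scaling for library composition, and 3 counts, the least taken as detectable, stand between 0.172 and 0.275 CPM by counting error alone. Foxa2 stood at 20, 16 and 3.5 CPM in Foxa2+ CM replicates 1, 2 and 3 and at 2.54, 0.873 and 0.903 CPM in Foxa2- CM, so that Foxa2+ CM replicate 3 lay close to the highest Foxa2- CM sample. In Endoderm Foxa2 reached 186 and 183 CPM. Kdr ranged from 354 to 440 CPM over the 6 CM samples and from 6.24 to 9.95 CPM in Endoderm, and Pdgfra from 201 to 306 CPM in CM and from 23.8 to 71.6 CPM in the other 4 samples. Both Flk1+ high samples had high Kdr, at 554 and 593 CPM, but they stood apart from each other for several regulators, with Myocd 33.1 times and Hand2 4.86 times higher in replicate 2 than in replicate 1.

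For 7 of the 9 regulators the RefSeq promoter table (build GRCm38.p6) holds the sequence before the transcription start, with 11 promoters in all; Hand1 and Myocd have no entry. Both strands of the 250 bases before each start were searched for GATA motifs in the form AGATAA, the form AGATAG, the form TGATAA and the form TGATAG, for forkhead motifs in the form TGTTTAC and the form TATTTAC, for NK2 motifs in the form TCAAGTG and the form TTAAGTG, for the E-box in the form CANNTG and for the CArG box. The 3 sequences printed here, of Isl1, Hand2 and Smarcd3, are those that held a GATA motif. Capitals mark the GATA matches, which read as the reverse complement where the motif lies on the other strand.
Isl1: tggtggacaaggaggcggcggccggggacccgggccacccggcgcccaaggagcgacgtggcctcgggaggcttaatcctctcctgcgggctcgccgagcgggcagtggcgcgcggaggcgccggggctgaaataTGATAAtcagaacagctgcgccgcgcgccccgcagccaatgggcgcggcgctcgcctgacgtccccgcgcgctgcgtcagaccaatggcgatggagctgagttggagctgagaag
Hand2: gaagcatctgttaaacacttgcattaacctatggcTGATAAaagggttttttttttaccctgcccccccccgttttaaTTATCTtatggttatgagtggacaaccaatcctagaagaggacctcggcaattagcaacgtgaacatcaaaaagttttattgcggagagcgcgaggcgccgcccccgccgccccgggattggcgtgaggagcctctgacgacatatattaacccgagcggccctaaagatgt
Smarcd3: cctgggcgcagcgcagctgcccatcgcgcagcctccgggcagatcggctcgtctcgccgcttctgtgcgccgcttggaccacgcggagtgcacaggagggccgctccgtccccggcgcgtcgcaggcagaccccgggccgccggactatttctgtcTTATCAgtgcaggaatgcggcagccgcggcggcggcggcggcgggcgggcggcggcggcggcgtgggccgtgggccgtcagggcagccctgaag

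They lie at chr13:116309689-116309938 (minus strand), chr8:57320733-57320982 (plus) and chr5:24602003-24602252 (minus), in that order, and are read 5′ to 3′ along the gene. The Isl1 and Hand2 windows end where GENCODE M21 begins the gene, and the Smarcd3 window lies inside the full span of the gene, before a start that is not its most upstream. Hand2os1, on the opposite strand, shares 461 exonic bases with Hand2 itself. The Isl1 match begins 115 bases before the start, the Hand2 matches 215 and 172 bases before it, and the Smarcd3 match 94 bases before it. A GATA motif was thus in 3 of the 11 promoters, and in 26.5% of 32851 promoters in the table cut to the same length. A forkhead motif, the kind of sequence Foxa2 binds, was in 1 of the 11, the second promoter of Hopx, and in 5.76% of all promoters. The E-box was in 7 of the 11 and in 66.2% of all, the CArG box in 1, the first promoter of Hopx, and in 1.47% of all, and the NK2 motif in none of the 11 and in 4.67% of all. No match overlapped another. These matches describe letters and are not binding sites.

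The comparison of the CM groups asks whether the regulators of the heart are used differently by cells that express Foxa2. Nkx2-5, Myocd and Casz1 were higher in Foxa2+ CM, by 2.16-fold, 2.80-fold and 4.09-fold, and Isl1 and Hand1 were lower, by 6.46-fold and 2.06-fold. Thus 5 of the 8 regulators that could be tested were called at an adjusted p under 0.05, 3 higher and 2 lower, where 6.48% of the 15284 genes tested were called, 3.81% higher and 2.66% lower. The regulators were chosen with earlier results of these data known. Their counts beside the shares of all genes are therefore a description and no test of enrichment, and the same holds for the gene lists below. Mef2c, Hand2 and Smarcd3 had lower means in Foxa2+ CM without passing the test. They passed in a fit with the replicate number as a block, which called all 8. Hopx was too low to be tested. Counting instead the genes whose 3 samples of one group all lay above the 3 of the other gave 7 of the 8 regulators, all but Hand2, against 24.1% of 15150 genes. With 1 sample left out the count ran from 3 to 7: it was 3 without Foxa2+ CM replicate 1 or 2 or Foxa2- CM replicate 2, and 7 without Foxa2+ CM replicate 3, the sample with little Foxa2. It was also 3 in the model of all 10 samples, and 7 without both samples numbered 3, a setting chosen after the data were seen that does not enter the ranges of adjusted p given for each gene.

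**Figure D1:**
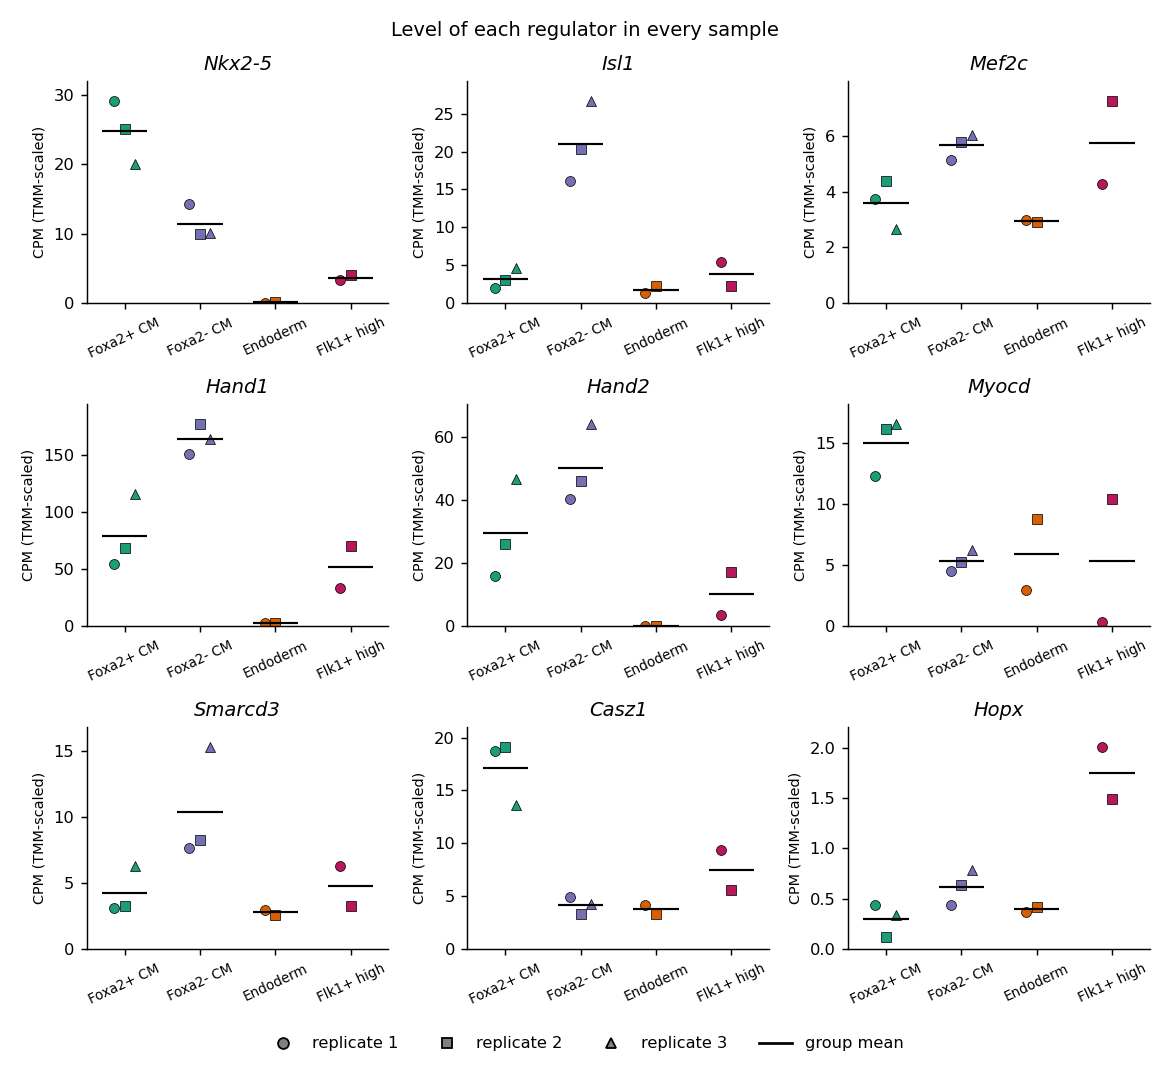
Level of each regulator in every sample, in CPM after TMM scaling on axes that start at 0; symbols mark the replicate, colours the sorted group and lines the group mean. Nkx2-5, Myocd and Casz1 lie highest in Foxa2+ CM and Isl1, Hand1 and Hand2 highest in Foxa2- CM, while the 2 samples of Flk1+ high lie far apart for Myocd, at 0.314 and 10.4 CPM.

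Nkx2-5 (ENSMUSG00000015579) lies at chr17:26838664-26845009 of mm10 (minus strand). Its level was 29.1, 25.1 and 20.1 CPM in Foxa2+ CM, against 14.2, 10.002 and 10.1 CPM in Foxa2- CM and 3.33 and 4.02 CPM in Flk1+ high, and in Endoderm only 1 and 2 counts were found, 0.0932 and 0.167 CPM. The 4 groups formed a series in which no sample of a group overlapped its neighbour. Foxa2+ CM exceeded Foxa2- CM by 1.11 on the log2 scale (standard error 0.19, adjusted p = 0.0152). That call was lost without Foxa2+ CM replicate 1 (adjusted p = 0.0568), Foxa2+ CM replicate 2 (0.0804) or Foxa2- CM replicate 2 (0.0871), while the difference stayed between 0.98 and 1.28 with any 1 sample left out, and over all 11 alternatives the adjusted p ran from 2.74e-06 to 0.0871. Flk1+ high was lower than Foxa2+ CM by 2.75 (SE 0.26, adjusted p = 0.000226) and lower than Foxa2- CM by 1.64 (SE 0.25, adjusted p = 0.0021). With 3 counts in all in Endoderm, Nkx2-5 was higher by a ratio of 184 in Foxa2+ CM (95% exact counting interval 62.9 to 895), 87.1 in Foxa2- CM (29.6 to 424) and 27.5 in Flk1+ high (9.14 to 135). Counts were summed over the libraries of each group, so these intervals cover counting error and not the spread between libraries.

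Isl1 (ENSMUSG00000042258) lies at chr13:116298281-116309689 of mm10 (minus strand). It stood at 1.97, 3.01 and 4.68 CPM in Foxa2+ CM and at 16.1, 20.4 and 26.6 CPM in Foxa2- CM, so that the lowest Foxa2- CM sample lay above every Foxa2+ CM sample. Endoderm held 1.30 and 2.26 CPM and Flk1+ high 5.46 and 2.28 CPM, both overlapping the range of Foxa2+ CM. Foxa2+ CM was lower than Foxa2- CM by 2.69 on the log2 scale (SE 0.32, adjusted p = 0.00446), the largest difference of the 8 regulators, and all 11 alternatives called it, with adjusted p from 1.51e-16 to 0.0372. Against Foxa2- CM, Isl1 was also lower in Endoderm (log2 fold change -3.55, SE 0.52, adjusted p = 0.00087) and in Flk1+ high (-2.43, SE 0.47, adjusted p = 0.00599). Against Foxa2+ CM neither difference passed, with -0.85 in Endoderm (adjusted p = 0.215) and 0.27 in Flk1+ high (adjusted p = 0.714). Isl1 thus had its high level in 1 of the 4 groups, whereas Nkx2-5 was well above Endoderm in 3.

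The balance of the homeodomain pair was read within each sample as the ratio of Isl1 to Nkx2-5 per kilobase of exon, which does not depend on library size. It was 0.0295, 0.0521 and 0.101 in Foxa2+ CM and 0.491, 0.886 and 1.14 in Foxa2- CM, with 0.713 and 0.247 in Flk1+ high. The CM ranges did not overlap, and the mean log2 ratio was lower in Foxa2+ CM by 3.88 (exact two-sided permutation p = 0.1, the smallest p that 3 samples against 3 allow). In Foxa2- CM replicate 3 the transcripts of both genes were about as frequent per kilobase, while in every Foxa2+ CM sample Nkx2-5 was at least 9 times as frequent as Isl1.

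**Figure D2:**
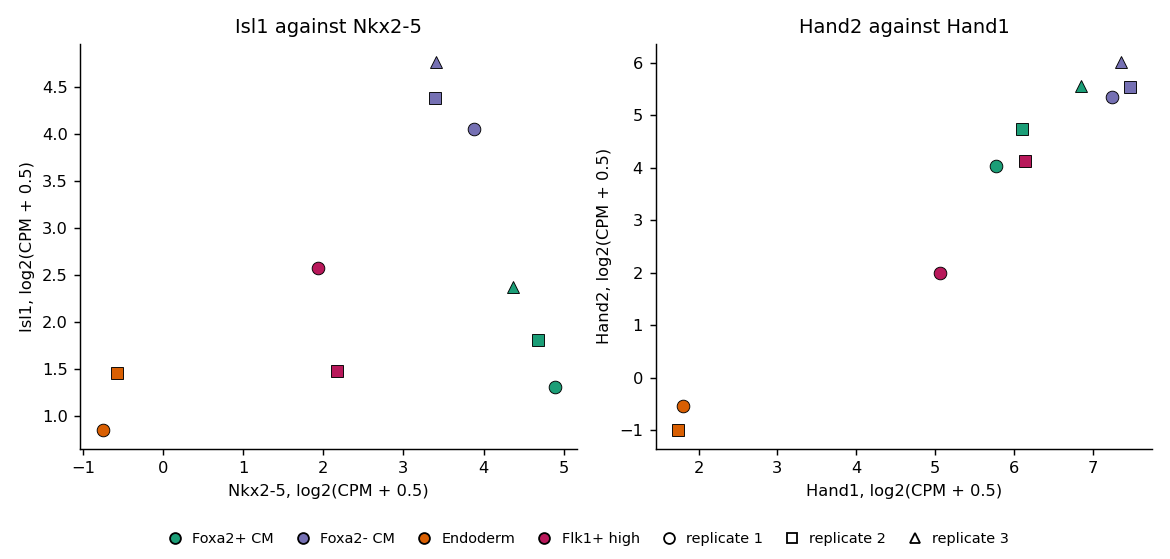
Isl1 against Nkx2-5 (left) and Hand2 against Hand1 (right), each as log2(CPM + 0.5), 1 point per sample with the group by colour and the replicate by symbol. On the left the 3 Foxa2+ CM samples lie at high Nkx2-5 and low Isl1 and the 3 Foxa2- CM samples at lower Nkx2-5 and high Isl1, and on the right the samples fall near 1 rising line from Endoderm to Foxa2- CM.

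Hand1 (ENSMUSG00000037335) lies at chr11:57828705-57832818 of mm10 (minus strand), and had the most counts of the 9 genes over the 10 samples. Its level was 54.4, 68.3 and 115 CPM in Foxa2+ CM, against 151, 177 and 164 CPM in Foxa2- CM, 33 and 69.9 CPM in Flk1+ high and 2.98 and 2.84 CPM in Endoderm. The CM groups did not overlap, but Foxa2+ CM spread 2.12-fold from its lowest to its highest sample and overlapped Flk1+ high. Foxa2+ CM was lower than Foxa2- CM by 1.04 on the log2 scale (SE 0.24, adjusted p = 0.0429). That call was lost without Foxa2+ CM replicate 1 (adjusted p = 0.0989), Foxa2+ CM replicate 2 (0.185), Foxa2- CM replicate 1 (0.0978) or Foxa2- CM replicate 2 (0.17) and in the model of all 10 samples (0.131), and the adjusted p over 11 alternatives ran from 0.000192 to 0.185. Hand1 reads were also dense enough for the removal of duplicate reads to bear on them, with 0.373 to 1.02 counts per exonic base in Foxa2+ CM and 1.12 to 1.46 in Foxa2- CM, and the effect of that step on the difference was not tested.

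Hand2 (ENSMUSG00000038193; mm10 chr8:57320983-57324633, plus strand) stood at 15.9, 26.1 and 46.8 CPM in Foxa2+ CM and at 40.2, 45.9 and 64.1 CPM in Foxa2- CM. Foxa2+ CM replicate 3 lay inside the range of Foxa2- CM, and Foxa2+ CM was lower by 0.75 on the log2 scale (SE 0.35, adjusted p = 0.305), which did not pass. Without that sample the difference was -1.25 (adjusted p = 0.0342), and with the replicate number as a block it also passed (adjusted p = 0.0006). Over all 11 alternatives the adjusted p ran from 0.0006 to 0.633. Endoderm held 2 counts in replicate 1 and 0 of 12317143 counts in replicate 2, which allows up to 0.244 CPM. Hand2 was therefore higher than in Endoderm by a ratio of 349 in Foxa2+ CM (95% exact counting interval 96.4 to 2883), 577 in Foxa2- CM (160 to 4766) and 108 in Flk1+ high (29.7 to 897). These intervals cover counting error and not the spread between libraries, and the ratios rest on the 2 counts of Endoderm replicate 1. Without that library, 3 counts were taken as the floor of replicate 2, 0.244 CPM before TMM scaling. The mean level of Hand2 stood 121-fold above that floor in Foxa2+ CM, 206-fold in Foxa2- CM and 42.3-fold in Flk1+ high. These folds are of means and do not bound single samples, the lowest of which were 15.9 CPM in Foxa2+ CM and 3.51 CPM in Flk1+ high.

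In Flk1+ high, Hand2 was at 3.51 and 17.1 CPM. Hand2 was lower there than in Foxa2- CM by 2.30 on the log2 scale (SE 0.64, adjusted p = 0.0312), a call lost without Foxa2- CM replicate 1 (adjusted p = 0.0607), 2 (0.0681) or 3 (0.0643) or Flk1+ high replicate 1 (0.0812), with 0.00689 to 0.0812 over 9 alternatives. Hand1 was lower by 1.68 in the same comparison (SE 0.35, adjusted p = 0.00923), and all 9 alternatives called it. Against Foxa2+ CM neither Hand gene passed (Hand1 -0.63, adjusted p = 0.219; Hand2 -1.54, adjusted p = 0.109), but without Flk1+ high replicate 2 both did (Hand1 -1.30, adjusted p = 0.0398; Hand2 -3.11, adjusted p = 0.0146). Hand1 was lower in Endoderm than in Foxa2+ CM by 4.77 (SE 0.48, adjusted p = 9.89e-05), than in Foxa2- CM by 5.81 (SE 0.49, adjusted p = 4.13e-05) and than in Flk1+ high by 4.13 (SE 0.50, adjusted p = 0.000292).

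The ratio of Hand1 to Hand2 per kilobase was 4.04, 3.08 and 2.90 in Foxa2+ CM and 4.41, 4.54 and 3.01 in Foxa2- CM, ranges that overlapped, with a difference in mean log2 ratio of -0.25 (exact two-sided permutation p = 0.3, where 0.1 is the smallest p that 3 samples against 3 allow). The test could not have passed and does not show that the ratios were alike. In Flk1+ high the ratio was 11.1 and 4.81. Over the 10 samples Hand1 and Hand2 had the highest correlation of the 36 pairs of regulators (Pearson r = 0.98 in log2(CPM + 0.5)), which describes samples of 4 cell types and carries no test.

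Myocd (ENSMUSG00000020542; mm10 chr11:65176561-65269989, minus strand) stood at 12.3, 16.1 and 16.5 CPM in Foxa2+ CM and at 4.52, 5.24 and 6.26 CPM in Foxa2- CM. The groups were well separated, and Foxa2+ CM was higher by 1.49 on the log2 scale (SE 0.19, adjusted p = 0.00573). The call held with any 1 sample left out (adjusted p at most 0.0447) and was lost in the model of all 10 samples (log2 fold change 1.49, adjusted p = 0.466), and the adjusted p over the 11 alternatives ran from 3.29e-09 to 0.466. Endoderm, at 2.98 and 8.78 CPM, and Flk1+ high, at 0.314 and 10.4 CPM (5 and 132 counts), each differed more between its own samples than the CM groups did, and both enter that model. No comparison of Myocd with Endoderm or Flk1+ high passed the test. Without Flk1+ high replicate 2, however, Myocd was lower in Flk1+ high than in Foxa2+ CM by 5.57 (adjusted p = 0.00167) and than in Foxa2- CM by 4.08 (adjusted p = 0.00797), and higher in Endoderm than in Flk1+ high by 4.20 (adjusted p = 0.00481).

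Mef2c (ENSMUSG00000005583; mm10 chr13:83504034-83667080, plus strand) was low everywhere, at 3.73, 4.40 and 2.65 CPM in Foxa2+ CM, against 5.14, 5.79 and 6.04 CPM in Foxa2- CM, 2.98 and 2.93 CPM in Endoderm and 4.27 and 7.25 CPM in Flk1+ high. All Foxa2- CM samples lay above all Foxa2+ CM samples, but the difference of -0.65 on the log2 scale (SE 0.22, adjusted p = 0.146) did not pass. Of 11 alternatives, only the fit with the replicate number as a block called it (adjusted p = 0.0405). Endoderm was lower than Foxa2- CM by 0.94 (SE 0.31, adjusted p = 0.0445). That call rested on all 5 samples of the comparison, with adjusted p of 0.0671, 0.0838 and 0.0943 without Foxa2- CM replicates 1, 2 and 3 and 0.152 and 0.159 without Endoderm replicates 1 and 2, and 0.0415 to 0.159 over 9 alternatives. Without Flk1+ high replicate 1, Mef2c was higher in Flk1+ high than in Foxa2+ CM (1.01, adjusted p = 0.0371) and lower in Endoderm than in Flk1+ high (-1.30, adjusted p = 0.0132), neither of which passed with all samples (adjusted p = 0.124 and 0.0511).

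Other genes of the MEF2 and myocardin families were far more abundant. Per kilobase of exon, the means in Foxa2+ and Foxa2- CM were 30.3 and 25.4 CPM for Mef2d and 5.62 and 5.53 CPM for Mef2a, against 0.229 and 0.36 CPM for Mef2c. Mef2b was listed at 0 in all 10 samples. The myocardin relatives Mrtfa and Mrtfb stood at 15.3 and 9.80 CPM per kilobase in Foxa2+ CM, against 2.33 CPM for Myocd itself. These family members were all given regardless of their values, but which to describe was chosen after the values were seen.

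Smarcd3 (ENSMUSG00000028949; mm10 chr5:24590818-24624411, minus strand) stood at 3.07, 3.24 and 6.32 CPM in Foxa2+ CM and at 7.68, 8.26 and 15.3 CPM in Foxa2- CM. The groups did not overlap, and in each the sample numbered 3 was well above the other two. Foxa2+ CM was lower by 1.30 on the log2 scale (SE 0.37, adjusted p = 0.0864) and did not pass. It passed without Foxa2+ CM replicate 3 (-1.72, adjusted p = 0.0316), without a filter on low counts (adjusted p = 0.033) and in DESeq2 (adjusted p = 0.00739). With the replicate number as a block it also passed (adjusted p = 0.000106), and over 11 alternatives the adjusted p ran from 0.000106 to 0.299. Endoderm, at 2.98 and 2.59 CPM, was lower than Foxa2- CM by 1.90 (SE 0.48, adjusted p = 0.0146), a call lost without Endoderm replicate 1 (0.0775) or 2 (0.0963), with 0.00103 to 0.0963 over 9 alternatives. Flk1+ high held 6.27 and 3.23 CPM and differed from no group by the test. Of the 5120 exonic bases of Smarcd3, 2466 are shared with Chpf2 on the opposite strand, and the kit does not keep the strand, so that reads there could not be given to either gene and the Smarcd3 level is uncertain.

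The other Smarcd subunits, which take the place of Smarcd3 in the BAF complex, were much more abundant and nearly level. Smarcd1 stood at a mean of 46.0 and 46.8 CPM per kilobase and Smarcd2 at 31.3 and 30.8 CPM in Foxa2+ and Foxa2- CM, against 0.822 and 2.03 CPM for Smarcd3. Of 21 other BAF subunits tested, edgeR called none between the CM groups at an adjusted p under 0.05, with 2 at an unadjusted p under 0.05. DESeq2 called 0, leaving out 1 sample gave at most 1, and a fit with the replicate number as a block called 3. Over all genes 6.48% were called. Their median log2 fold change was 0.01, against 0.00 over all 15284 genes.

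Casz1 (ENSMUSG00000028977; mm10 chr4:148804429-148954889, plus strand) stood at 18.7, 19.1 and 13.6 CPM in Foxa2+ CM and at 4.89, 3.33 and 4.29 CPM in Foxa2- CM. Every Foxa2+ CM sample lay far above the highest Foxa2- CM sample. The difference was 2.03 on the log2 scale (SE 0.21, adjusted p = 0.00277), and all 11 alternatives called it, with adjusted p from 8.45e-16 to 0.0234. Flk1+ high lay between the CM groups at 9.41 and 5.59 CPM, without overlap with either, and Endoderm stood at 4.19 and 3.35 CPM, inside the range of Foxa2- CM. Casz1 was lower in Endoderm than in Foxa2+ CM by 2.18 (SE 0.30, adjusted p = 0.000589), and all 9 alternatives called it.

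The place of Casz1 in Flk1+ high was less firm. It was lower than in Foxa2+ CM by 1.18 (SE 0.28, adjusted p = 0.0154), a call lost without Foxa2+ CM replicate 2 (0.0571) or Flk1+ high replicate 2 (0.0679). It was higher than in Foxa2- CM by 0.85 without passing (SE 0.28, adjusted p = 0.059), and passed without Flk1+ high replicate 2 (1.15, adjusted p = 0.024) and in DESeq2 (adjusted p = 0.0462). Endoderm was lower than Flk1+ high by 1.00 (SE 0.32, adjusted p = 0.0382), a call lost without Endoderm replicate 1 (0.0743), Endoderm replicate 2 (0.18) or Flk1+ high replicate 1 (0.218). Over their alternatives these adjusted p ran from 0.00103 to 0.0679, from 0.024 to 0.355 and from 0.013 to 0.218.

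Hopx (ENSMUSG00000059325; mm10 chr5:77086988-77115121, minus strand) was near the limit of detection. It had 6, 2 and 6 counts in Foxa2+ CM and 7, 8 and 14 in Foxa2- CM, 0.439, 0.116, 0.338, 0.433, 0.635 and 0.790 CPM, and failed the filter for the CM comparison. Endoderm held 4 and 5 counts and Flk1+ high 32 and 19, or 2.01 and 1.5 CPM, the highest of the 10 samples. The gene passed the filter of the 10-sample model only through Flk1+ high, the group where it was highest, which biases a test towards a difference there. No test of it is given, and it enters only the counts of how the results depend on the processing. Its place is described by these counts alone, with both Flk1+ high samples above the 8 others.

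The comparisons with Endoderm and Flk1+ high share samples with each other, so their counts are given side by side and not as separate evidence. They cover the 8 regulators other than Hopx. In Endoderm, 4 of the 8 were lower than in Foxa2+ CM (35.0% of 16180 genes were called, 16.7% lower and 18.3% higher) and 6 of the 8 were lower than in Foxa2- CM (30.1% called, 14.0% lower and 16.1% higher). In Flk1+ high, Nkx2-5 and Casz1 were lower than in Foxa2+ CM, 2 of the 8, a share near that of all genes (22.8% called, 11.2% lower and 11.6% higher). Against Foxa2- CM, Nkx2-5, Isl1, Hand1 and Hand2 were lower in Flk1+ high, 4 of the 8 (21.6% called, 10.3% lower and 11.3% higher). Endoderm was lower than Flk1+ high for Nkx2-5, Hand1, Hand2 and Casz1, also 4 of the 8 (32.6% called, 16.2% lower and 16.4% higher). None of the 8 was called higher in Endoderm than in another group. Myocd and Casz1 did not pass between Endoderm and Foxa2- CM, with log2 fold changes of 0.14 (SE 0.88, adjusted p = 0.921) and -0.15 (SE 0.30, adjusted p = 0.737).

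**Figure D3:**
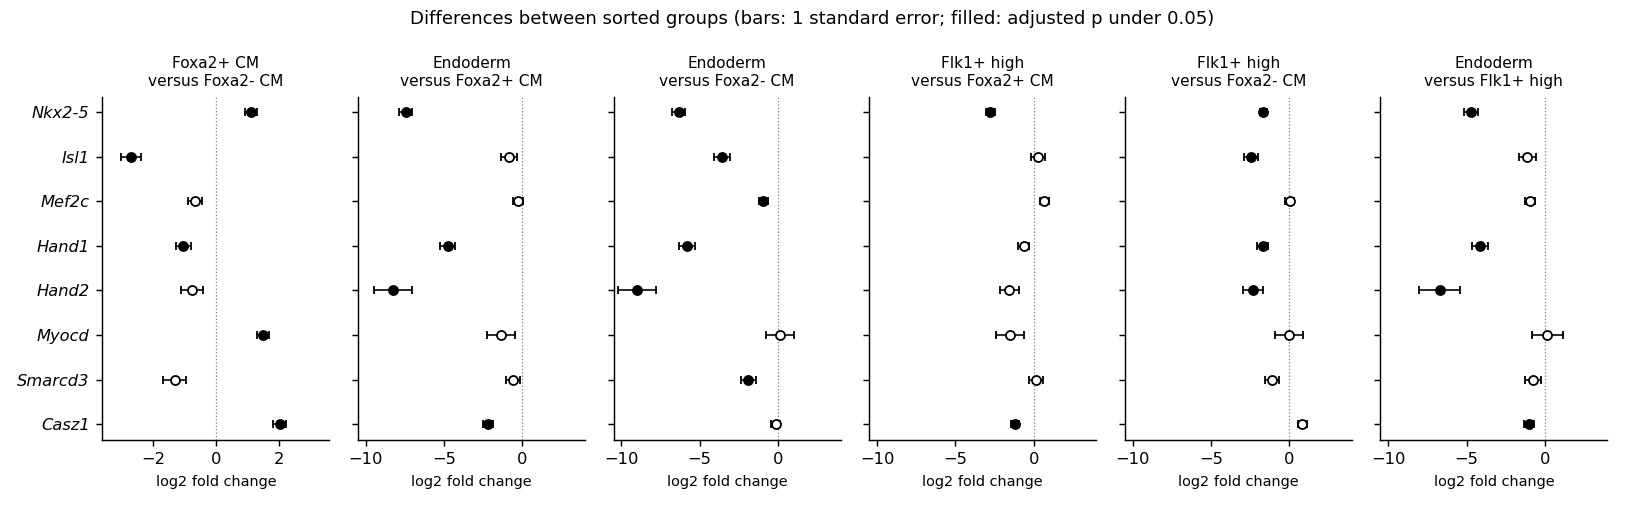
Log2 fold change of 8 regulators, all but Hopx, in the 6 comparisons (first-named group over the second), with bars of 1 standard error and filled points for an adjusted p under 0.05; the horizontal scale of the CM comparison is narrower than that of the other 5. Casz1, Myocd and Nkx2-5 lie right of 0 and the other 5 regulators left of it between the CM groups, and Nkx2-5, Hand1 and Hand2 lie furthest left in the comparisons with Endoderm.

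Ranked by level per kilobase of exon, Hand1 led in every group, with 54.8% of the summed level of the 9 regulators in Foxa2+ CM and 68.8% in Foxa2- CM. In Foxa2+ CM it was followed by Nkx2-5 and Hand2, whose ranges overlapped, then by Myocd, then by Casz1, Smarcd3 and Isl1, each overlapping its neighbour, with Mef2c and Hopx last and overlapping. In Foxa2- CM, Hand2 was next after Hand1, then Nkx2-5 and Isl1, whose ranges overlapped, then Smarcd3 and Myocd, and Hopx, Mef2c and Casz1 came last with each overlapping its neighbour. Casz1 thus stood in place 5 in Foxa2+ CM and in place 9 in Foxa2- CM, and Isl1 in places 7 and 4, places that the overlaps leave unresolved within each run.

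Within the groups, the samples numbered 3 stood apart for some regulators. Foxa2+ CM replicate 3, with the least Foxa2, had the highest Isl1, Hand1, Hand2, Smarcd3 and Myocd and the lowest Nkx2-5, Casz1 and Mef2c of its group. For 6 of these 8 that is the side of Foxa2- CM, and for Mef2c and Myocd the far side. Foxa2- CM replicate 3 was likewise highest of its group for Isl1, Hand2 and Smarcd3, and also for Mef2c, Myocd and Hopx. With 1 sample per number and group, whether this follows Foxa2 was not tested.

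The genes whose levels followed 8 of the regulators most closely over the 10 samples, among 16024 genes, are given as a description, since these samples share 4 cell types. Hand2 was followed by Rgs5 (Pearson r = 1.00) and Foxf1 (0.99), and Nkx2-5 by Iffo1 (0.99) and Mical1 (0.99). Isl1 was followed by Neurl1a (0.98) and the pseudogene Gm16505 (0.97), Smarcd3 by B4galnt1 (0.98) and Slc26a11 (0.97), and Myocd by Ube2ql1 (0.97) and Xbp1 (0.95). The closest to Casz1 were Galc (0.95) and Kif18b (0.94), to Mef2c Gm11614 (0.94) and Lhx6 (0.93), and to Hopx Gp5 (0.95) and Artn (0.94). Among the regulators themselves Isl1 and Smarcd3 came next after the Hand pair (0.94), and Myocd and Hopx were the most opposed (-0.63).

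Other regulators of early heart development were split in the same comparison, in which 3.81% of all genes were called higher and 2.66% lower. Of 21 tested of 24 listed, 3 were higher in Foxa2+ CM, the GATA cofactor Zfpm2 (24.6 ± 7.19 against 4.11 ± 1.22 CPM, SD, n = 3, log2 fold change 2.57, adjusted p = 0.00439), the T-box factor Tbx5 (3.78 ± 0.435 against 1.08 ± 0.651 CPM, 1.76, adjusted p = 0.0331) and the chromatin factor Jarid2 (0.37, adjusted p = 0.0445). The early mesoderm factors Mesp1 (5.74 ± 1.77 against 49.4 ± 22.7 CPM, -3.10, adjusted p = 0.00627) and Mesp2 (-2.37, adjusted p = 0.0119) were lower, as were the homeodomain factors Meis1 (-1.80, adjusted p = 0.0162) and Meis2 (-1.57, adjusted p = 0.0118). The list's median was -0.02.

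Of 14 tested of 16 listed genes of the SHF, 5 were lower in Foxa2+ CM and 1 higher, where 2.66% of all genes were lower and 3.81% higher. The list's median was -0.69, against 0.00 over all genes, and 9 of the 14 values were below 0 and 5 above. With 1 sample left out, between 2 and 6 of the 14 were called. Lower were the lateral mesoderm factor Osr1 (1 to 9 counts in the Foxa2+ CM samples and 28 to 166 in the others, -4.34, adjusted p = 0.0294), Hoxb1 (3.13 ± 2.33 against 30.7 ± 4.35 CPM, -3.26, adjusted p = 0.00605), the retinoic acid enzyme Aldh1a2 (-2.02, adjusted p = 0.0227), the forkhead factor Foxc1 (-1.86, adjusted p = 0.0176) and the ligand Wnt5a (-0.88, adjusted p = 0.0333). The phosphatase and cofactor Eya1 went the other way (43.1 ± 4.16 against 20.7 ± 0.605 CPM, 1.06, adjusted p = 0.00174). Isl1 was not counted in this list.

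**Figure D4:**
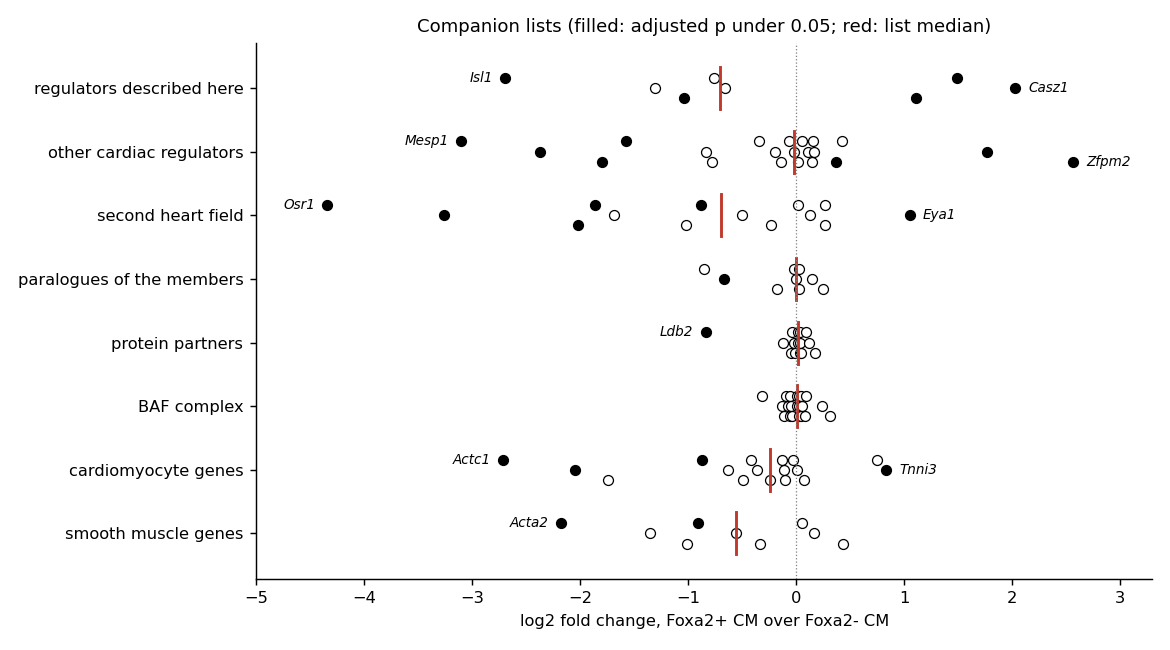
Log2 fold change of Foxa2+ CM over Foxa2- CM for each tested gene of 8 lists, with filled points for an adjusted p under 0.05 and a red line at the median of each list; the vertical scatter within a row only separates points. The BAF complex and the protein partners lie near 0, while the regulators described here, the other cardiac regulators and the second heart field genes spread to both sides.

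Among paralogues of the 9 regulators, 1 of 9 tested of 12 in the tables was called, the basic helix-loop-helix factor Twist1, lower in Foxa2+ CM (12.4 ± 0.714 against 19.8 ± 1.85 CPM, SD, n = 3, -0.67, adjusted p = 0.0172), with a median of -0.00 for the list. Among 15 tested of 16 protein partners, 1 was called, or 6.67%, near the 6.48% of all genes and lost with some samples left out, the LIM-domain cofactor Ldb2 (-0.83, adjusted p = 0.0245), with a median of 0.02. Nkx2-3 and Nkx2-6, the closest relatives of Nkx2-5, reached at most 3 counts in any CM sample.

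Some genes of the contractile apparatus also differed between the CM groups, where 3.81% of all genes were called higher and 2.66% lower in Foxa2+ CM. Of 17 tested of 28 listed cardiomyocyte genes, cardiac actin Actc1 (1.11 ± 0.264 against 7.38 ± 1.22 CPM, SD, n = 3, -2.71, adjusted p = 0.00198), the slow skeletal troponin Tnni1 (-2.04, adjusted p = 0.00627) and the Z-disc protein Actn2 (-0.87, adjusted p = 0.0478) were lower in Foxa2+ CM, and the cardiac troponin Tnni3 was higher (12.8 ± 1.25 against 7.16 ± 1.06 CPM, 0.84, adjusted p = 0.0253). The list's median was -0.24. Tnnt2 (-0.03, adjusted p = 0.97) and Myl7 (-0.42, adjusted p = 0.54), structural genes of early cardiomyocytes, did not pass. Of 9 tested of 12 smooth muscle genes, many of them known targets of SRF and myocardin, Acta2 (1.91 ± 0.453 against 8.69 ± 1.08 CPM, -2.17, adjusted p = 0.00305) and Cnn1 (-0.91, adjusted p = 0.0137) were lower in Foxa2+ CM and none was higher, with a median of -0.56, while Myocd itself was higher.

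Across the other comparisons the list of other cardiac regulators had 10 of 21 tested genes lower and 3 higher in Endoderm than in Foxa2+ CM and 12 lower and 2 higher than in Foxa2- CM, where 35.0% and 30.1% of all genes were called in either direction. In Flk1+ high 6 were lower and 1 higher than in Foxa2+ CM, and 5 lower and 2 higher than in Foxa2- CM, where 22.8% and 21.6% of all genes were called. Of 20 tested cardiomyocyte genes, 10 were higher and 5 lower in Flk1+ high than in Foxa2+ CM, against 4 higher and 3 lower than in Foxa2- CM. Only 17 of them passed the filter of the CM comparison. Mybpc3, Myh7 and Myl3 entered with the 10-sample model, where a group with a high level can carry a gene past the filter. Calls of these genes are therefore no evidence. The 21 BAF subunits had between 4 and 9 genes called in these comparisons and that of Endoderm with Flk1+ high, or 19.0% to 42.9%, where 21.6% to 35.0% of all genes were called.

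Some markers of other cell types also differed between the CM groups, and their part in the differences above was not tested. Of all 15284 genes tested, 6.48% were called, 3.81% higher and 2.66% lower in Foxa2+ CM. Of 15 tested of 17 endoderm markers, 3 were called higher in Foxa2+ CM (Foxa2, whose reporter set the gate, Sox17 at 2.09 and Trh at 0.86 on the log2 scale) and none lower, with 0 to 6 called with 1 sample left out. Of the 15, 6 had values below 0, among them Foxa1 (-0.88, adjusted p = 0.0736), Cdh1 (-0.54, adjusted p = 0.0944) and Cxcr4 (-0.32, adjusted p = 0.0671), none of which passed. The summed level of the list was 438 to 508 CPM there, against 424 to 450 CPM in Foxa2- CM and 1838 to 2029 CPM in Endoderm. Of 8 tested of 12 markers of paraxial or posterior mesoderm, 4 were lower in Foxa2+ CM (Cdx1, Cdx2, Dll1 and Tbx6), with sums of 148 to 151 against 192 to 199 CPM and Meox2 at 0 in all 10 samples. Of the 8, 3 had values above 0 without passing (Meox1 at 1.12, Hes7 at 0.87 and T at 0.22). With 1 sample left out, 1 to 5 of them were called. Of 11 pluripotency markers, Nanog (-2.41) and Sox2 (-0.89) were lower, with 1 to 6 called with 1 sample left out. Without passing, Esrrb (1.33, adjusted p = 0.0843) and Fgf5 (1.30, adjusted p = 0.0709) had values above 0. Tdgf1 (-1.15, adjusted p = 0.0529) and Pou5f1 (-0.76, adjusted p = 0.0736) had values below 0, also without passing. Of the 11 values 5 were above 0 and 6 below. The sums of that list were 378 to 460 against 413 to 531 CPM. Of 2 neural markers tested Sox3 (1.40) was higher, with sums of 55.5 to 76.8 against 30.4 to 63.7 CPM. Of 15 tested haemato-endothelial markers only Lmo2 (0.79) was called, higher in Foxa2+ CM, or 6.67%, near the share of all genes. The sums of that list were 508 to 720 against 400 to 734 CPM in CM and 2074 to 2567 CPM in Flk1+ high, with Hba-x at 0 throughout. The 10 markers of cardiac or lateral mesoderm, which include Hand1 and Nkx2-5, had 1 gene higher and 2 lower in Foxa2+ CM, with sums of 1368 to 1571 against 1613 to 1790 CPM in CM, 901 to 1106 CPM in Flk1+ high and 254 to 402 CPM in Endoderm.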

How the data were processed

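RNA of 10 sorted samples was analysed, in the groups and replicates of the labels. The authors prepared unstranded TruSeq libraries, aligned 50 nt single-end reads to mm10 with STAR (2.5.0a), removed duplicates with Picard, which limits the counts of dense genes, and counted reads per gene with HTSeq (0.6.0). They deposited whole-number counts, not normalized; reads outside genes or ambiguous were left out, leaving 72.2% to 80.5% of reads.

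From these counts, TMM factors, filterByExpr and quasi-likelihood tests were computed in edgeR (4.0.16, R 4.3.3), with Benjamini-Hochberg adjustment over all genes tested and a threshold of 0.05. The CM comparison used the 6 CM samples, and the other 5 comparisons 1 model of all 10 samples. Standard errors (SE) are the size of the log2 fold change over the root of F. CPM used TMM factors over all 10 samples, and correlations a pseudocount of 0.5. Ratios against Endoderm carry exact intervals at 95%. Symbols, positions and exon lengths came from GENCODE M21, a later release than the authors name. The code was tested on simulated counts. Alternatives were DESeq2 (1.42.0), RLE factors, no filter, at least 2-fold, a replicate block, all 10 samples and leaving out each sample; leaving out both CM samples numbered 3 was added after the data were seen.

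The members and lists were chosen with earlier results of these data known. Named were all 9 members, Foxa2, Kdr and Pdgfra, up to 5 called genes per companion list with the largest change between the CM groups, Tnnt2, Myl7 and Actc1, and the 2 genes correlated best with each member. Other genes were named after their values were seen. The genes most alike to Hand1 are not reported here.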

Additional observations from a re-analysis of the deposited data

How the results depend on the processing

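Of 492 log2 fold changes of the regulators recomputed under the alternatives, 441 stayed on their side of the threshold. Another 33 lost and 18 gained a call, and none of the called values reversed. Values that passed in neither setting could change direction, such as Isl1 in Flk1+ high over Foxa2+ CM, from 0.27 to -0.51 with 1 sample left out. Counts are of regulators, Hopx included where it passed the filter, then of all genes called. The 492 values and the regulator ranges for comparisons with Endoderm or Flk1+ high thus take in Hopx. It passed that filter only through Flk1+ high, so its calls there are biased by the filter and are no evidence. These ranges therefore cannot be set against the regulator counts given earlier for the same comparisons, which leave Hopx out. Between the CM groups, 5 and 990 became 3 and 288 with all 10 samples in 1 model, and between 3 and 7 and between 234 and 1701 with 1 sample left out. The genes became 460 at 2-fold or more and 2632 without both samples numbered 3, a setting chosen after the data were seen. Requiring 2-fold gave 3032 genes (main 5660) for Endoderm against Foxa2+ CM, 2748 (4875) against Foxa2- CM and 3098 (5276) against Flk1+ high, and 1848 (3685) and 1884 (3492) for Flk1+ high against Foxa2+ and Foxa2- CM. With 1 sample left out, where a lone sample is assumed to vary like the other groups, those genes ranged from 3601 to 4892, 3015 to 4191, 3932 to 5363, 2320 to 3402 and 2140 to 3422, and the regulators from 4 to 4, 4 to 5, 3 to 6, 2 to 5 and 3 to 6. Of 36 mean levels, 35 moved by less than 1 SD without TMM factors, and Mef2c in Endoderm moved from 2.95 to 2.89 CPM. For the companion lists between the CM groups, leaving out 1 sample gave 2 to 6 called genes for the other cardiac regulators (7 with all samples), 2 to 6 for the second heart field (6), 2 to 5 for cardiomyocyte genes (4), 1 to 4 for smooth muscle genes (2), 0 to 2 for paralogues (1) and 0 to 1 for protein partners (1). The causes were not tested. With 2 or 3 samples a group, and counts under 10 for Hopx in most samples, small differences were not detectable at this depth.

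The replicate numbers were not taken to pair the CM samples, since the labels do not say that same-numbered samples share a culture. Deviations of same-numbered samples correlated at 0.48, 0.0855 and 0.58. Foxa2+ CM replicate 1 with Foxa2- CM replicate 3 gave -0.547, and Foxa2+ CM replicate 3 with Foxa2- CM replicate 1 gave -0.498. Numbers 1 and 3 were thus more alike within a number than across. Foxa2+ CM replicate 2 was near 0 with Foxa2- CM replicates 1 (0.0974) and 2. Whether the samples were paired was not tested. A fit with the replicate number as a block called 8 regulators, with Mef2c (adjusted p = 0.0405), Hand2 (0.0006) and Smarcd3 (0.000106) added, 3 BAF subunits (0 without the block) and 2556 genes.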
